A study of Mus musculus with 16 samples.

Results

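The genes described here encode 10 heat shock proteins, the molecular chaperones of the cytosol, the endoplasmic reticulum (ER) and the mitochondrion. They are Hsph1, Hspa1a, Hspa1b, Hspa8, Hsp90aa1, Dnaja1, Dnajb1, Hspa5, Hspd1 and Hspb1. They were taken by symbol from a table of 24421 genes, and all 10 were present in it. RNA was sequenced from skin of female SKH-1 mice, a hairless strain used for skin cancer studies, in 16 libraries that the labels place in 8 groups of 2. The UVB groups were epidermis taken after 2, 15 or 25 weeks of UVB irradiation at 60 mJ/cm2 given in 2 sessions per week, and skin tumors taken at week 25 of the same irradiation. The control groups received no agent and were epidermis at weeks 2, 15 and 25 and whole skin at week 25. Libraries are called 0 and 1 within a group, as in their titles. The labels state neither the ages of the mice nor whether a group's libraries are from different mice, so every p-value measures only the spread between these libraries.

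Heat shock proteins bind unfolded or partly folded proteins and help them to fold, to assemble or to be degraded. HSP70 proteins (here Hspa1a, Hspa1b, Hspa8 and, in the ER, Hspa5) hold their clients in cycles of ATP binding and release. J-domain proteins such as Dnaja1 and Dnajb1 deliver clients to HSP70 and speed its ATP use, and HSP110 proteins such as Hsph1 exchange its nucleotide. Hsp90aa1 takes over clients such as kinases and steroid receptors, Hspd1 is the mitochondrial chaperonin, and Hspb1 is a small heat shock protein that holds clients without ATP and is made in differentiating epidermis. Heat and other stresses induce many of these genes through heat shock factor 1, which binds heat shock elements in their promoters, whereas Hspa5 is induced by the unfolded protein response of the ER.

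Library totals ran from 2905165 counts (week 2 control 1) to 7959503 counts (whole skin control 0), a 2.74-fold range. Levels are given as CPM (counts scaled to a common library size) with sizes from TMM, a method that centres the typical gene between libraries. Fold changes are log2 values from edgeR's quasi-likelihood test with their standard errors (SE), and a gene was called at a Benjamini-Hochberg adjusted p under 0.05 over all genes tested. Week 2 control 1 stood apart by its low depth. The whole skin libraries differed most from each other, with a chi-square of 48.9 per degree of freedom, against 4.82 to 21.2 in the other 7 groups. Keratinocyte markers summed to between 5042 and 5914 CPM in the 12 epidermis libraries, with none of 9 at 0. Counting followed duplicate removal, which limits the counts per base that abundant genes can reach. Its part in these sums was not tested. All 10 genes passed the filter on low counts in every comparison.

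Per kilobase of exon, Hspa5 and Hspb1 had the highest levels of the 10 in epidermis and Dnaja1 the lowest. Over the 12 epidermis libraries, the median level was 148 CPM per kilobase for Hspa5, 118 for Hspb1, 76.1 for Dnajb1, 60.3 for Hspa8, 55.9 for Hspd1, 52.4 for Hspa1b, 33.6 for Hspa1a, 28.6 for Hsph1, 25.4 for Hsp90aa1 and 15.3 for Dnaja1. Between neighbours in that order, the ranges over libraries were apart for Hspb1 and Dnajb1 and overlapped for each other pair. The order depends on the exon length, which was 5790 bases for Dnaja1 and 903 for Hspb1. In CPM the median of Dnaja1 (88.5) was above that of Hsp90aa1 (72.4). That of Hspb1 (107) was below that of Dnajb1 (246). The genes differed in how much they varied. The highest of the 12 epidermis libraries was 5.55 times the lowest for Hsph1, 3.67 times for Hsp90aa1 and 1.18 times for Hspa8, the constitutive HSP70. The plot of CPM by library shows this contrast.

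**Figure D1:**
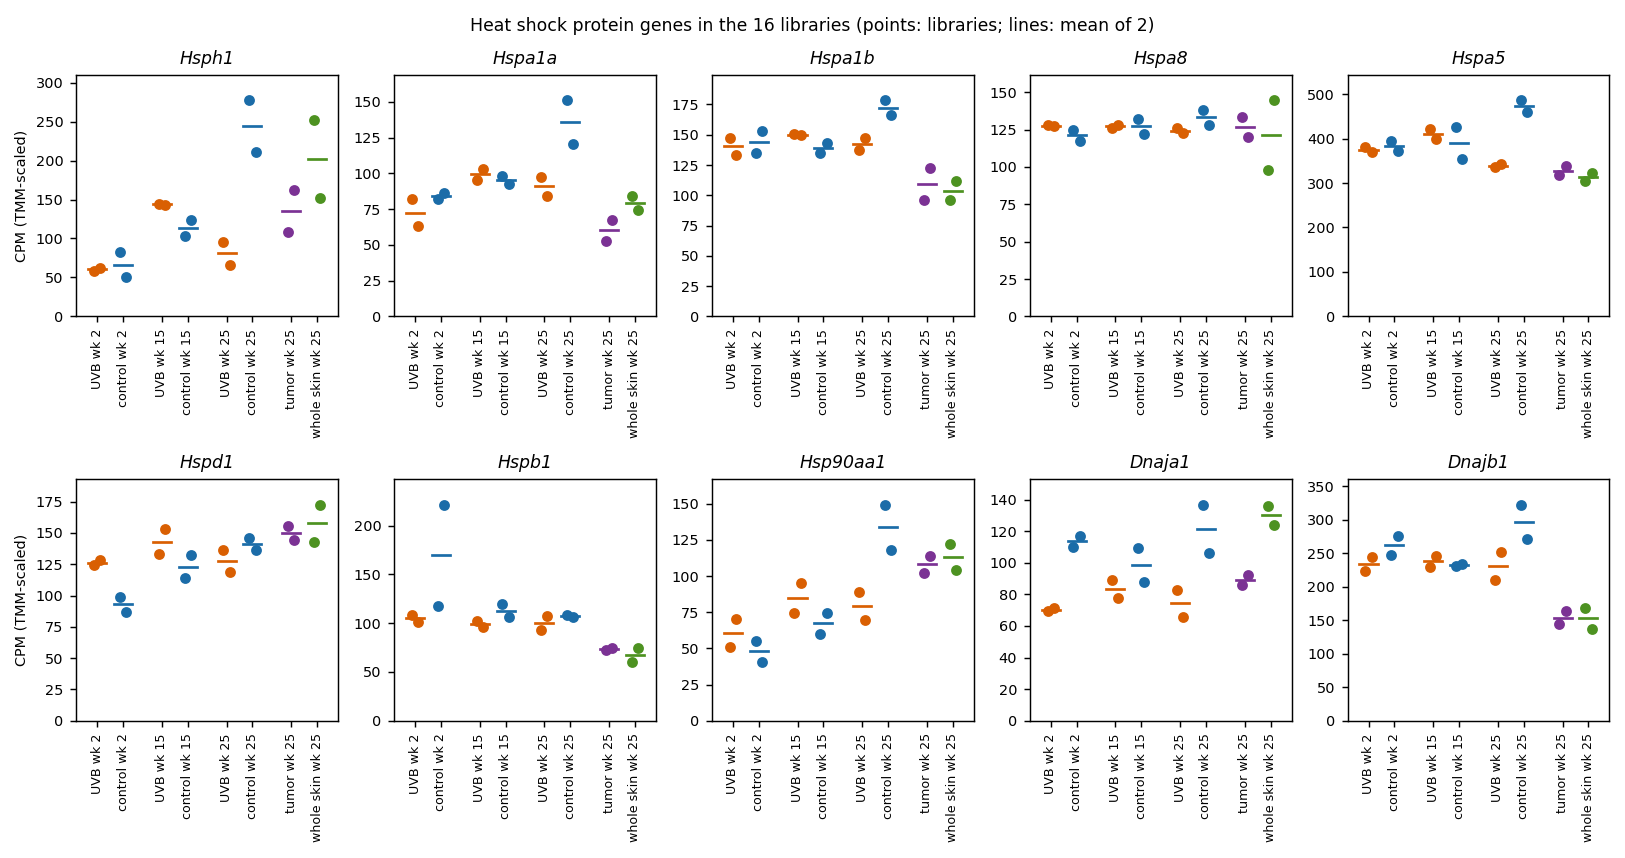
CPM of each of the 10 genes (y axis, from 0, one scale per gene) in the 16 libraries, grouped on the x axis by treatment and week (orange, UVB epidermis; blue, control epidermis; purple, tumor; green, whole skin control), with points for libraries and lines for the mean of 2. Hsph1 reached 277 and 212 CPM in week 25 controls, while Hspa8 stayed between 118 and 138 CPM in epidermis.

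The level of Hspa1a and Hspa1b, the stress-inducible HSP70 genes, carries an uncertainty of its own. Hspa1a (chr17:34969359-34972156, mm10, minus strand) and Hspa1b (chr17:34956429-34959238, minus strand) are near-identical single-exon copies. Of all windows of 50 bases in the Hspa1a transcript of GENCODE, 58.8% were also found in the Hspa1b transcript, and 47.1% of windows of 100 bases were. Reads from such windows cannot be assigned to 1 copy, and the labels do not say how the counting treated them. The 250 bases before the transcription starts of both copies, from RefSeq (GRCm38.p6, the same assembly as mm10), differed at 3 positions. They are shown because both hold the same heat shock element core, GAANNTTC in capitals, at 104 bases before the start (chr17:34972157-34972406 for Hspa1a and chr17:34959239-34959488 for Hspa1b, minus strand).
Hspa1a: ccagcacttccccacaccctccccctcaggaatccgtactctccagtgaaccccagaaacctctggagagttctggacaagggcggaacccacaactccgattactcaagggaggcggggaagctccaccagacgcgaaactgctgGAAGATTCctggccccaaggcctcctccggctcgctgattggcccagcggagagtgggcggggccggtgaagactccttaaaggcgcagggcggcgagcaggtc
Hspa1b: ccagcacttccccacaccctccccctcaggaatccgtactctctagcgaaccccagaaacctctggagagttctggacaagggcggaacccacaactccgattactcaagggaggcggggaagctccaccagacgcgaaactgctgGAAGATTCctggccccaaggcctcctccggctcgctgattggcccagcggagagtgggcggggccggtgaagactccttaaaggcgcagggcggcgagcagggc

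RefSeq windows of the 250 bases before the start were found for 8 of the 10 genes, and 6 of them held a heat shock element core, GAANNTTC or its counterpart TTCNNGAA, which each read the same on both strands and can overlap. Such a core stood in 12.8% of all 32851 windows of that length (6.69% for GAANNTTC and 7.17% for TTCNNGAA). The following stretches of 30 bases show the cores in capitals, read on the gene's strand. They are chr5:149636351-149636380 (minus strand) for Hsph1, chr1:55088053-55088082 (minus strand) for Hspd1, chr5:135887801-135887830 (plus strand) for Hspb1 and chr4:40722333-40722362 (plus strand) for Dnaja1.
Hsph1: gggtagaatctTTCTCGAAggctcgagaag
Hspd1: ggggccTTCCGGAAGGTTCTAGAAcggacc
Hspb1: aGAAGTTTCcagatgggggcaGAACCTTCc
Dnaja1: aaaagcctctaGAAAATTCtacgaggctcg
The Hspd1 stretch holds overlapping cores that make up heat shock elements of 3 or more units, and an element of 3 units in a row stood in 0.466% of all windows. No core was found in the windows of Hspa5 and Dnajb1. The Hspa5 window instead held an ER stress element, in which CCAAT and CCACG are separated by 9 bases, at 65 bases before the start (chr2:34772020-34772049, plus strand), with the whole element in capitals here.
Hspa5: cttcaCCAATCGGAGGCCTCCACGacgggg
An ER stress element on either strand stood in 0.113% of all windows. CCAAT or its reverse complement ATTGG was found in the windows of Hsph1, Hspa1a, Hspa1b, Hspa5 and Dnajb1, and in 33.8% of all windows. These matches describe the letters only and were not tested for binding.

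As the mean over the 3 weeks, UVB lowered 1 of the 10 genes, Dnaja1 (chr4:40722468-40737151), which encodes the cytosolic J-domain partner of constitutive HSP70. Over the 6 UVB libraries Dnaja1 lay between 65.5 and 89.0 CPM with a median of 74.7 CPM, against 88.0 to 137 CPM with a median of 109.6 CPM over the 6 controls. The ranges overlapped only between week 15 UVB 0 and week 15 control 1. The fold was -0.57 ± 0.12 (SE; edgeR quasi-likelihood test, adjusted p = 0.0044), and it was past the threshold in each of 18 alternative fits. Over all genes tested, 14.4% were called higher and 15.1% lower in this comparison, so 1 of 10 called lower is no more than that share; with upper-quartile scaling the split was 2440 higher and 1462 lower, against 1938 and 2035 with TMM. The median fold of the 10 genes was -0.18, against -0.02 for all genes tested. Hspd1 had the one positive fold of the 10 with TMM, 0.14 ± 0.11, not called (adjusted p = 0.33), and with upper-quartile scaling Hspa8 and Hsp90aa1 were positive too. In such bulk samples, fewer cells of a type and less RNA per cell cannot be told apart. Hair follicle genes summed to between 213 and 451 CPM in UVB epidermis and between 732 and 2236 CPM in controls (14 genes, none at 0), and their part in the result was not tested.

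At week 2, after the first sessions, Dnaja1 was again the called gene. It had 69.4 and 71.4 CPM in UVB epidermis, against 109.9 and 117 CPM in controls. The fold was -0.72 ± 0.18 (edgeR, adjusted p = 0.024), in a comparison where 8.09% of genes were called higher and 9.74% lower. The call was lost without control 1 (-0.65, adjusted p = 0.085) and without either UVB library (adjusted p = 0.112 and 0.135), and it had an adjusted p of 0.068 when fitted on the 4 libraries alone. Over its 11 alternatives the adjusted p reached 0.135 at most.

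Of the genes not called at week 2, Hspd1 and Hspb1 had the smallest adjusted p-values. Hspd1 (chr1:55077834-55087932) had 124 and 128 CPM in UVB epidermis, against 99.1 and 87.2 CPM in controls (0.40 ± 0.14, edgeR, adjusted p = 0.072). Hspb1 (chr5:135887919-135889563) had 108.8 and 101.2 CPM in UVB epidermis, against 118 and 221 CPM in controls. Its fold of -0.72 ± 0.24 (edgeR, adjusted p = 0.062) rested on control 1, since without that library it was -0.18 ± 0.14 and without control 0 it was -1.05 ± 0.14. It was called with DESeq2 (adjusted p = 0.038) and without the filter (edgeR, adjusted p = 0.034). Of 12 genes listed as RNA quality signs, a list that includes Gapdh and Actb, 6 were in the table. These 6 summed to 4631 CPM in week 2 control 1 and to 2350 CPM in control 0. The 213 genes at 1 to 9 counts per base had a median log2 ratio of 0.75 in control 1 over control 0. The part of RNA quality or of depth in the Hspb1 values was not tested. The other 7 genes had folds between -0.24 and 0.29, none called.

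At week 15 none of the 10 genes was called (edgeR; 0 of 10 also at an unadjusted p under 0.05, and 0 with DESeq2). The folds ran from -0.26 to 0.33, the largest SE was 0.24 and the smallest adjusted p was 0.456. Over all genes, 1.85% were called higher and 1.64% lower. Hsph1 had 144 and 143 CPM in UVB epidermis, against 103 and 124 CPM in controls. Hsp90aa1 (chr12:110691036-110696395) had 74.6 and 95.4 CPM in UVB epidermis, against 60.2 and 74.5 CPM in controls. For Hsph1 the interval of 2 SE either side of the fold ran from -0.13 to 0.79, and for Hsp90aa1 from -0.14 to 0.78, each including 0.

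At week 25, 5 of the 10 genes were lower in UVB epidermis, the cytosolic Hsph1, Hspa1a, Hsp90aa1 and Dnaja1 and the ER-resident Hspa5, where 10.6% of all genes were called higher and 10.9% lower. All 10 folds were negative with TMM, and 3 of them turned positive with upper-quartile scaling. Hsph1 (chr5:149616845-149636315), the HSP110 nucleotide exchange factor, had 95.9 and 66.3 CPM in UVB epidermis, against 277 and 212 CPM in controls. The groups lay far apart, with a fold of -1.62 ± 0.23 (edgeR, adjusted p = 0.0027), or 0.326 on the linear scale. Hsp90aa1 had 89.3 and 69.5 CPM in UVB epidermis, against 149 and 118 CPM in controls (-0.78 ± 0.23, edgeR, adjusted p = 0.035). Dnaja1 had 83.0 and 65.5 CPM in UVB epidermis, against 137 and 106 CPM in controls (-0.74 ± 0.18, adjusted p = 0.019, edgeR). Each of these genes had both UVB libraries below both controls, as did 33.4% of all genes tested.

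The HSP70 genes of week 25 divided into called and uncalled members. Hspa1a had 97.2 and 84.5 CPM in UVB epidermis, against 151 and 121 CPM in controls (-0.61 ± 0.17, edgeR, adjusted p = 0.028). Its copy Hspa1b had 137 and 147 CPM in UVB epidermis, against 178 and 166 CPM in controls (-0.30 ± 0.13, edgeR, adjusted p = 0.115). Hspa5 (chr2:34772090-34776529), the ER chaperone BiP, had 336 and 342 CPM in UVB epidermis, against 486 and 459.9 CPM in controls (-0.51 ± 0.14, edgeR, adjusted p = 0.032). Hspa5 reached 1.14 counts per base of exon, against a highest value of 1.83 to 2.11 over all genes in each library; the part of duplicate removal in its fold was not tested. Hspa8 (chr9:40801273-40805199) had 126 and 123 CPM in UVB epidermis, against 138 and 128 CPM in controls, with a fold of -0.13 ± 0.12 that was not called.

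Dnajb1 (chr8:83608175-83612653), the stress-inducible J-domain protein, had 210.0 and 253 CPM in UVB epidermis at week 25, against 322 and 272 CPM in controls (-0.39 ± 0.15, edgeR, adjusted p = 0.090). Hspd1 had a fold of -0.18 ± 0.14 and Hspb1 one of -0.12 ± 0.24, neither called. For 9 of the 10 genes both UVB libraries were below both controls, which was so for 33.4% of all genes tested. The exception was Hspb1, with 93.4 and 107 CPM in UVB epidermis, against 108 and 106 CPM in controls. The median fold of the 10 genes was -0.45, against 0.01 for all genes tested.

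The week 25 calls depended on the scaling and on single libraries. With upper-quartile scaling, which moved the median of all genes to 0.19, Hsph1 and Dnaja1 were called and Hspa8, Hspd1 and Hspb1 turned positive, while the split over all genes was 2015 higher and 824 lower, against 1430 and 1468 with TMM. Relative to the median of all genes, the median of the 10 was -0.46 with either scaling. Without control 0, UVB 0 or UVB 1 the called gene was Hsph1, and without control 1 Hsph1 and Dnaja1 were called. Hsph1 was past the threshold in each of 11 alternative fits, with folds between -1.92 and -1.38.

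**Figure D2:**
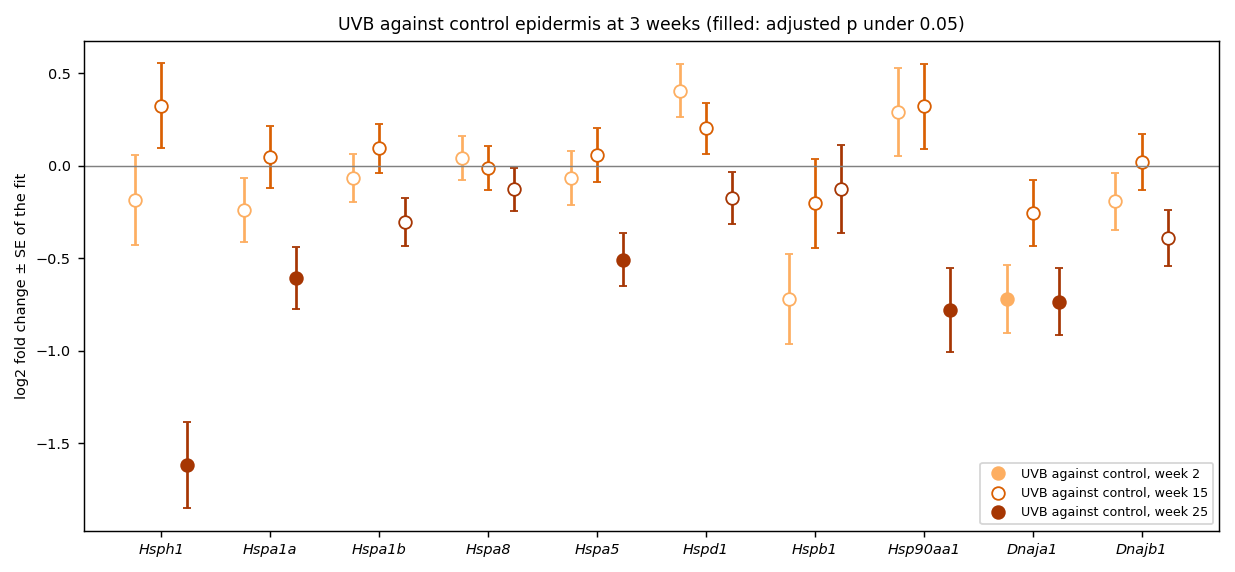
Log2 fold change of UVB against control epidermis (y axis) for the 10 genes (x axis) at weeks 2, 15 and 25, in darkening orange, with bars for 1 SE of the fit and filled points for an adjusted p under 0.05. With TMM, the week 25 fold of Hsph1 is -1.62 and all 10 week 25 folds are below 0, of which 3 turned positive with upper-quartile scaling.

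The difference between the UVB effects at weeks 25 and 2 was tested in the same fit. Hsph1 was the called gene of the 10 (-1.43 ± 0.33, edgeR, adjusted p = 0.029), where 3.33% of all genes were called higher and 4.59% lower, and upper-quartile scaling gave 542 higher and 380 lower genes with a median of 0.23 over all genes, against 449 and 618 with a median of 0.09 with TMM. The Hsph1 call was lost when any of 7 of the 8 libraries involved was left out, with upper-quartile scaling (adjusted p = 0.051) and in the fit of all 16 libraries (adjusted p = 0.073), and the adjusted p reached 0.097 at most over its 14 alternatives. The call held without week 2 control 0. Hsp90aa1 had a difference of -1.07 ± 0.33 that was not called (edgeR, adjusted p = 0.068). For the difference between weeks 15 and 2 none of the 10 genes was called, and of all genes 0% were called higher and 0% lower (edgeR; 1190 genes at an unadjusted p under 0.05, and 50 genes called by DESeq2).

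The high controls of week 25 enter that result. Control epidermis at week 25 had higher Hsph1, Hsp90aa1, Hspa1a and Hspd1 than control epidermis at week 2, and this comparison shares the week 25 controls with the UVB comparison above. For 5 genes (Hsph1, Hspa1a, Hspa1b, Hspa5 and Hsp90aa1) both week 25 controls were above the other 10 epidermis libraries, as was so for 8.55% of all genes tested. The week 25 controls also had the largest totals in epidermis, 6503183 and 7175363 counts, against 6238016 and 5657967 in week 25 UVB epidermis. The part of depth in the week 25 folds was not tested. Hsph1 had 277 and 212 CPM at week 25, against 82.6 and 49.96 CPM at week 2 (1.87 ± 0.24, edgeR, adjusted p = 0.0045). Week 15 controls lay between them, at 103 and 124 CPM. Hsp90aa1 had 149 and 118 CPM at week 25, against 55.4 and 40.6 CPM at week 2 (1.47 ± 0.24, edgeR, adjusted p = 0.0078).

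Hspa1a (0.70 ± 0.17, edgeR, adjusted p = 0.028) and Hspd1 (0.60 ± 0.14, adjusted p = 0.026) were also called higher in week 25 controls. These 4 of 10 stand beside 8.47% of all genes called higher and 5.24% lower, with a median fold of 0.28 for the 10 genes and -0.01 for all genes; with upper-quartile scaling 939 genes were higher and 1210 lower, against 1142 and 706 with TMM. The calls of Hsph1 and Hsp90aa1 held in each of 10 alternative fits, while those of Hspa1a and Hspd1 were lost without week 2 control 1, week 25 control 0 or week 25 control 1. Dnaja1, the gene that UVB lowered on the mean over weeks, had a fold of 0.10 ± 0.18 between the controls, not called (edgeR, adjusted p = 0.72). Hspb1 had 108 and 106 CPM at week 25, against 118 and 221 CPM at week 2, a fold of -0.66 ± 0.24 that was not called and became -0.12 without week 2 control 1.

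Other chaperone genes, from lists chosen by family, were mostly lower in week 25 UVB epidermis where they were called. At week 25, UVB epidermis had 0 higher and 3 lower of 9 tested genes of the HSP70 family outside the 10 members, with a list median of -0.33 against 0.01 for all genes, of which 10.9% were called lower. The ER-resident Hyou1 was one of them, with 175 and 144 CPM in UVB epidermis, against 318 and 337 CPM in controls (-1.07 ± 0.21, edgeR, adjusted p = 0.0075). Hspa2 (-1.19 ± 0.33) and Hspa13 (-0.64 ± 0.19) were the others. Of 3 other HSP90 genes, the ER form Hsp90b1 was lower (-0.48 ± 0.14), a call lost whichever of the 4 libraries was left out, with upper-quartile scaling, without the filter and with all 16 libraries. Of 33 other J-domain genes 1 was higher and 7 were lower, among them Dnajc3, an ER cochaperone of Hspa5 (-0.69 ± 0.12), and Dnajb4 (-1.06 ± 0.21), with a median of -0.25.

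Among 24 cochaperone genes of HSP70 and HSP90, 0 were higher and 5 lower at week 25, with a median of -0.12. Over all genes tested, 10.6% were called higher and 10.9% lower, with a median of 0.01. Stip1, which links HSP70 to HSP90, had 150 and 127 CPM in UVB epidermis, against 231 and 217 CPM in controls (-0.72 ± 0.18, edgeR, adjusted p = 0.019). Fkbp5, an HSP90 cochaperone of steroid receptors, had 40.1 and 43.9 CPM in UVB epidermis, against 136 and 119 CPM in controls (-1.63 ± 0.38, edgeR, adjusted p = 0.015). Chordc1 (-0.66 ± 0.12) and St13 (-0.57 ± 0.15) were lower too. Of 28 genes of the unfolded protein response and ER folding, 0 were higher and 8 lower, with a median of -0.34, including Herpud1, part of ER-associated degradation (-0.78 ± 0.12), and the ER stress sensor Atf6 (-0.85 ± 0.16). Hyou1, Dnajc3 and Hsp90b1 stand in this list and in those above. With upper-quartile scaling 2 J-domain genes and 1 cochaperone gene were called higher at week 25, and 0 HSP70 and 0 ER genes. Leaving out 1 of the 4 libraries left 0 or 1 lower HSP70 genes, 1 or 2 lower J-domain genes, 0 or 1 lower cochaperone genes and 3 to 5 lower ER genes, and with upper-quartile scaling these counts were 1, 4, 2 and 7. Herpud1 was past the threshold in each of 11 alternative fits, with folds between -0.80 and -0.60, whereas Stip1 and Fkbp5 lost their calls whichever of the 4 libraries was left out.

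Lists of other folding machinery and of immediate early genes had 0 or 1 called gene each at week 25. Over all genes tested, 10.6% were called higher and 10.9% lower. Of 14 genes of the chaperonin TRiC and prefoldin 1 was higher (Pfdn4, 0.84 ± 0.25) and 0 were lower, and of 20 immediate early genes Egr2 was lower (-0.73 ± 0.22) and 0 were higher. Both calls were lost whichever of the 4 libraries was left out and with all 16 libraries, and that of Egr2 also with upper-quartile scaling. Of 31 proteasome genes 0 were called by edgeR and by DESeq2 (2 at an unadjusted p under 0.05 with edgeR), and 2 were higher with upper-quartile scaling. Of 4 tested small heat shock protein genes 0 were called by edgeR (2 at an unadjusted p under 0.05), while DESeq2, the fit without the filter, that of the 4 libraries alone and that without control 1 each called 1 lower. Of 14 mitochondrial chaperone and protease genes Hspe1 was called higher and 0 were lower. Other settings added calls. The 4 libraries alone gave 4 higher and 1 lower immediate early genes and 3 higher and 1 lower mitochondrial genes. They also gave 2 higher and 1 lower TRiC and prefoldin genes and 1 higher and 1 lower proteasome genes. Without the filter 2 immediate early genes were higher and 1 lower. Mitochondrial genes had 3 higher with upper-quartile scaling and 2 with DESeq2, and 0 lower with each. Hspe1 (chr1:55088148-55091317), the cochaperonin of Hspd1, starts 216 bases from Hspd1 on the other strand. It had 80.9 and 74.3 CPM in UVB epidermis, against 34.7 and 42.2 CPM in controls (0.98 ± 0.24, edgeR, adjusted p = 0.017), beside -0.18 ± 0.14 for Hspd1. This Hspe1 call was lost whichever of the 4 libraries was left out (adjusted p up to 0.117 over 11 alternatives), while as the mean over weeks Hspe1 was higher by 0.69 ± 0.14 (edgeR, adjusted p = 0.0042) and past the threshold in each of 18 alternatives. The difference between the folds of these neighbours was not tested.

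Of 4 heat shock factor genes, Hsf2 was lower at week 25, and it was also lower at weeks 2 and 15. Hsf2 had 38.8 and 27.6 CPM in UVB epidermis at week 2, against 101.4 and 79.2 CPM in controls (-1.48 ± 0.27, edgeR, adjusted p = 0.0071). At week 15 it had 50.8 and 33.0 CPM, against 118 and 82.1 CPM in controls (-1.27 ± 0.26, edgeR, adjusted p = 0.032). At week 25 it had 48.8 and 52.7 CPM, against 133 and 102 CPM (-1.23 ± 0.26, edgeR, adjusted p = 0.010). Both UVB libraries were thus below both controls at each week, as was so at week 25 for 33.4% of all genes tested. Without single libraries the call was lost once at week 2, in 2 cases at week 15 and in 3 cases at week 25, while as the mean over weeks (-1.32 ± 0.15, edgeR, adjusted p = 0.00017) it held in each of 18 alternatives. Hspa4l, an HSP110 protein like Hsph1, was higher in UVB epidermis at week 2 (1.62 ± 0.23) and week 15 (0.95 ± 0.22) and was not called at week 25, where it had 83.0 and 64.8 CPM against 72.5 and 90.2 CPM in controls. Chac1, a target of the unfolded protein response, was lower at week 2 (-1.86 ± 0.22).

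Between week 25 and week 2 controls, where 8.47% of all genes were called higher, 3 of the 9 other HSP70 genes were higher and none lower, namely Hspa4l (1.45 ± 0.23), Hyou1 (1.13 ± 0.21) and Hspa2 (1.72 ± 0.36). Of 33 other J-domain genes 5 were higher and 0 lower, and of 24 cochaperone genes 3 were higher and 0 lower, among them Stip1 (0.81 ± 0.18) and Chordc1 (0.67 ± 0.13). Of 28 genes of the unfolded protein response and ER folding 8 were higher and 2 lower, with the stress sensor Ern1 higher (1.06 ± 0.21) and Chac1 lower (-1.49 ± 0.21). The list medians were 0.42 for HSP70, 0.19 for J-domain, 0.25 for cochaperone and 0.32 for ER genes, against -0.01 for all genes. Without week 2 control 1, the shallowest library, 2 HSP70, 1 J-domain, 2 cochaperone and 2 ER genes were called higher, and without week 2 control 0 the counts were 6, 7, 7 and 10, while leaving out a week 25 control left at most 1 HSP70, 1 J-domain, 0 cochaperone and 2 ER genes called higher. In these controls fibroblast markers summed to 61.1 and 59.4 CPM at week 25, against 66.2 and 108 CPM at week 2 (10 genes, none at 0). Of the 7 tested, 2 were called lower at week 25 and 0 higher, with a median fold of -3.15, where 5.24% of all genes were called lower. The 6 RNA quality genes in the table summed to 1953 and 2023 CPM at week 25, with 1 at 0, against 2350 and 4631 CPM at week 2. The 5 tested had a median fold of -0.65, and the part of depth in it was not tested. Adipocyte markers summed to 26.7 and 33.1 CPM at week 25, against 53.1 and 284 CPM at week 2, with 1 of 7 at 0 at each week. Of the 3 tested, 1 was called lower and 0 higher, with a median fold of -3.05. Of 9 keratinocyte markers 3 were called higher at week 25, with sums of 5914 and 5696 CPM, against 5042 and 5794 CPM at week 2.

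Markers of other cell types also differed in UVB epidermis at week 25, where 10.6% of all genes were called higher and 10.9% lower. Fibroblast markers summed to 228 and 109 CPM in UVB epidermis, with 1 of 10 at 0, against 61.1 and 59.4 CPM in controls, and 5 of 7 tested were called higher. Macrophage and myeloid markers summed to 168 and 128 CPM in UVB epidermis, against 58.4 and 49.9 CPM in controls (8 genes, none at 0), and 5 of 8 were called higher with a median fold of 2.45. The part of these markers in the results of either comparison was not tested.

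**Figure D3:**
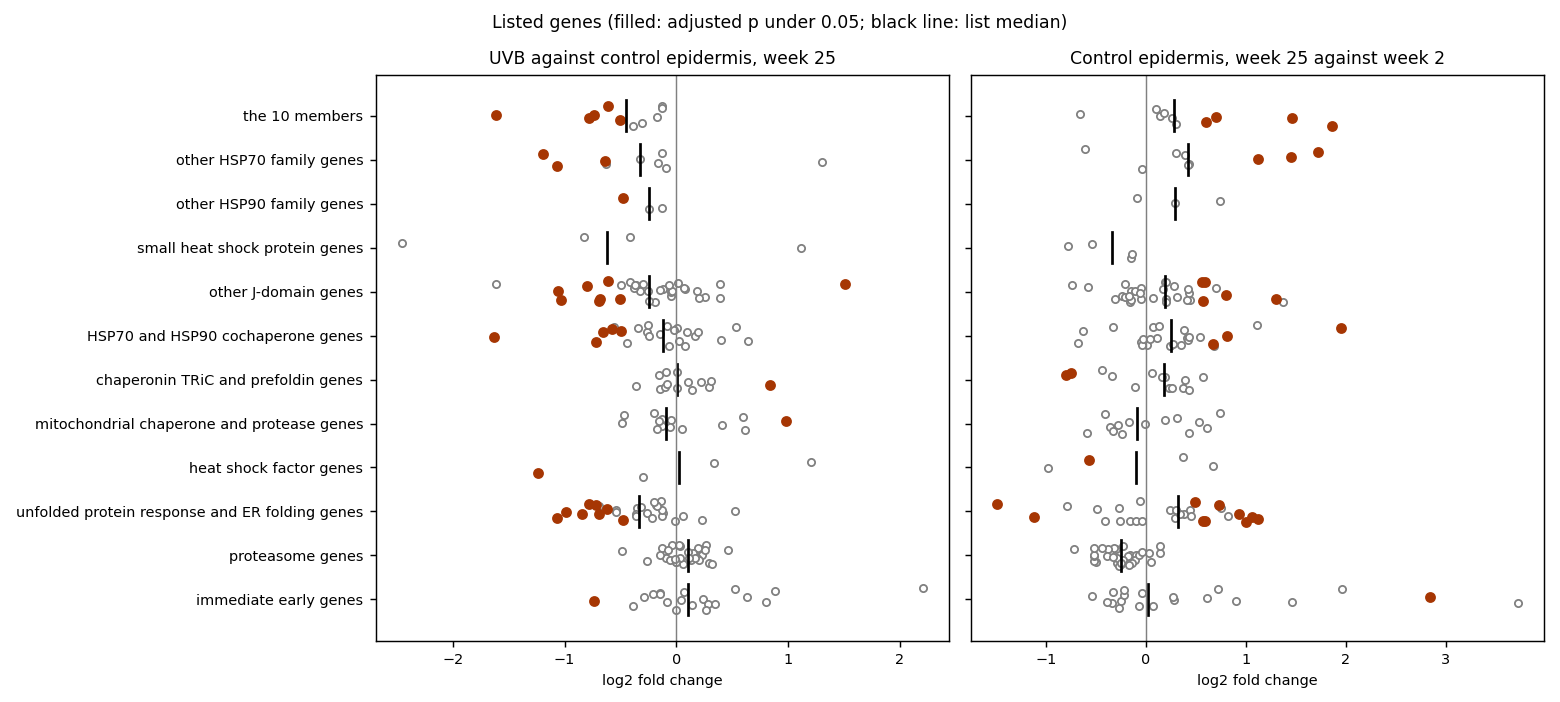
Log2 fold changes (x axis) of the 10 members and of the genes of 11 chaperone and stress lists (rows), for UVB against control epidermis at week 25 (left) and for control epidermis at week 25 against week 2 (right), which share the week 25 controls. Each point is a gene, filled where the adjusted p is under 0.05, and the black line is the list median, -0.45 on the left and 0.28 on the right for the 10 members; on the left 3 members turn positive with upper-quartile scaling.

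In tumor against whole skin of unexposed mice at week 25, none of the 10 genes was called. Of all genes, 0% were called higher and 0% lower (edgeR; 813 of 14661 genes at an unadjusted p under 0.05, and 74 called by DESeq2, with 0 of the 10 members). Dnaja1 had 86.0 and 92.2 CPM in tumors, against 136 and 124 CPM in whole skin (-0.63 ± 0.20, edgeR, adjusted p = 0.89). Hsph1 had 108.5 and 162 CPM in tumors, against 253 and 151 CPM in whole skin, and Hspa1a had 53.0 and 67.2 CPM in tumors, against 84.3 and 74.2 CPM in whole skin. Without whole skin control 1, Hsph1 (-0.98 ± 0.12), Hspa1a and Dnaja1 were called, and without whole skin control 0 Dnaja1 was called, with the lone remaining control assumed to vary like the tumors. The other genes had folds between -0.15 and 0.04 with SEs of 0.20 to 0.25, of which Hspb1 was positive with TMM and Hspa1b, Hspa8 and Hspa5 turned positive with upper-quartile scaling.

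Tumors differed from UVB epidermis of the same week in Dnajb1 and Hspa1a, which were lower. Both genes were also lower in unexposed whole skin than in control epidermis (Dnajb1 -0.96 ± 0.16, Hspa1a -0.78 ± 0.18). The part of tissue in the tumor folds was not tested. Dnajb1 had 145 and 163 CPM in tumors, against 210.0 and 253 CPM in UVB epidermis (-0.59 ± 0.16, edgeR, adjusted p = 0.015). Hspa1a had 53.0 and 67.2 CPM in tumors, against 97.2 and 84.5 CPM in UVB epidermis (-0.60 ± 0.19, edgeR, adjusted p = 0.027). These 2 of 10 stand beside 12.7% of all genes called lower and 16.8% called higher; upper-quartile scaling gave 2958 higher and 1403 lower genes and a median of 0.19, against 2543 and 1926 and a median of 0.03 with TMM, and neither of the 2 genes was then called. Hsph1 had a positive fold that was not called (0.74 ± 0.29, edgeR, adjusted p = 0.075), and it was called with upper-quartile scaling, with DESeq2 and without the filter. Without UVB epidermis 1 or without tumor 0 none of the 10 was called, and without UVB epidermis 0 Dnajb1 alone was.

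Whole skin had 5 of the 10 genes lower than control epidermis at week 25, where 31.9% of all genes were called higher and 23.7% lower. Dnajb1 had 168 and 137 CPM in whole skin, against 322 and 272 CPM in epidermis (-0.96 ± 0.16, edgeR, adjusted p = 0.00033). Hspa1b had 96.0 and 112 CPM in whole skin, against 178 and 166 CPM in epidermis (-0.73 ± 0.16, edgeR, adjusted p = 0.0017). Hspa1a (-0.78 ± 0.18), Hspa5 (-0.60 ± 0.14) and Hspb1 (-0.67 ± 0.23) were the others called. Dnaja1 (0.10 ± 0.18) and Hspd1 (0.16 ± 0.16) had positive folds that were not called.

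The median of the 10 genes in whole skin against epidermis was -0.43, against 0.18 for all genes. With upper-quartile scaling the median of all genes became 0.49 with 6140 genes higher and 2464 lower, against 4826 and 3583 with TMM. Hspd1 was then called higher, Hspa5 and Hspb1 were not called, and Hsph1, Hspa8 and Hsp90aa1 turned positive. The Hspb1 call was lost without whole skin control 0, epidermis control 0 or epidermis control 1. Keratinocyte markers summed to 3552 and 3741 CPM in whole skin and to 4020 and 4059 CPM in tumors, against at least 5042 CPM in epidermis. Their part in these results was not tested, nor was the part of duplicate removal in the sums.

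Whole skin and tumors also had RNA of other tissues. Skeletal muscle markers summed to 3132 and 6464 CPM in whole skin and to 4724 and 4643 CPM in tumors, against 26.9 to 119 CPM in epidermis (11 genes, none at 0). The small heat shock protein genes outside the 10 members, several of which are known from muscle, differed with them. In whole skin against control epidermis 5 of 7 were higher and 2 lower, where 31.9% of all genes were called higher and 23.7% lower. In tumors against UVB epidermis 5 of 7 were higher and 1 lower, where 16.8% of all genes were called higher and 12.7% lower. Cryab had 93.7 and 183 CPM in whole skin, against 11.0 and 6.78 CPM in control epidermis (3.96 ± 0.39, edgeR, adjusted p = 7.38e-06). Hspb6 had 223 and 230.4 CPM in tumors, against 3.05 and 4.82 CPM in UVB epidermis (5.85 ± 0.53, edgeR, adjusted p = 1.05e-05). The part of muscle RNA in the values of the 10 members was not tested. Of 29 ER genes in whole skin 0 were higher and 20 lower than in control epidermis, and of 20 immediate early genes 2 were higher and 14 lower.

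Hspb1 counts hardly followed library depth. Its counts ran from 420 to 691, a 1.65-fold range over libraries whose totals spanned 2.74-fold, while Hspa5 counts ran from 881 to 2986 and Hsph1 counts from 118 to 2447. Hspb1 is short, with 903 bases of exon, and stood at 0.465 to 0.765 counts per base. In week 2 control 1 over control 0, Hspb1 had a log2 ratio of 0.91 in CPM, against a median of 0.31 over the 1315 genes at 0.4 to 1 counts per base. Hspa5 (-0.08) and Dnajb1 (0.16) stood in the same range of counts per base. The median was lower for genes with fewer counts per base. It was -0.17 over the 2180 genes at 0.1 to 0.2, where Hsph1 (-0.72), Hsp90aa1 (-0.45) and Hspa1a (0.07) stood. At 0.02 to 0.1 it was -0.33 over 3606 genes, with Dnaja1 (0.09) among them. The part of depth in the folds that use week 2 controls was not tested.

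**Figure D4:**
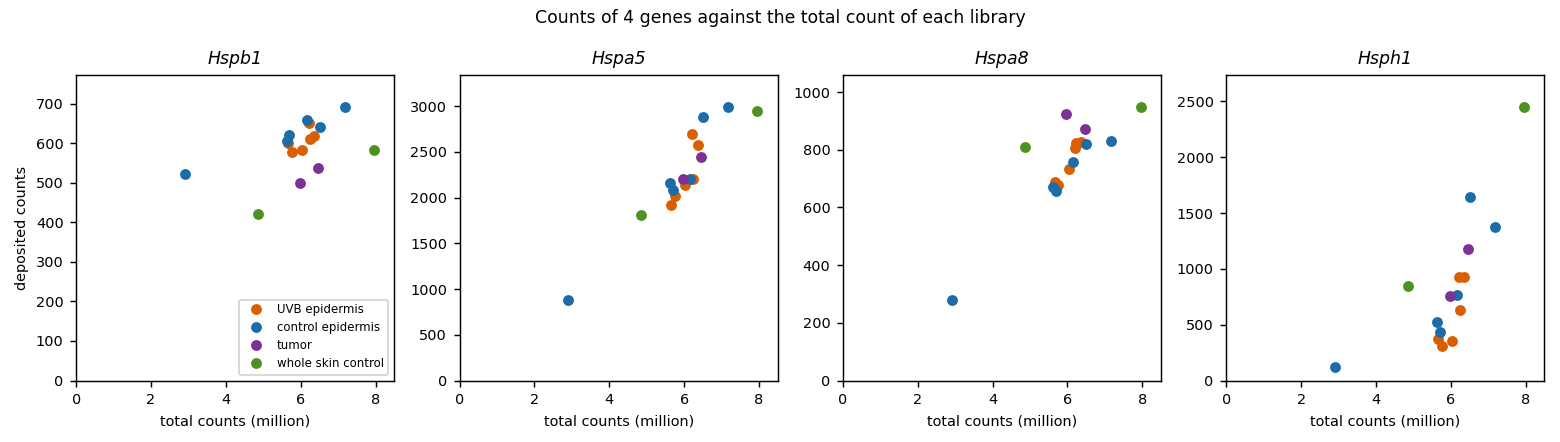
Deposited counts (y axis, from 0) of Hspb1, Hspa5, Hspa8 and Hsph1 against the total counts of each library (x axis), with 1 point per library, coloured by tissue and treatment. Hspb1 has 523 counts in the shallowest library, week 2 control 1, where Hspa5 has 881, Hspa8 278 and Hsph1 118.

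Across the 16 libraries, the 3 genes most like each member were taken by Pearson's correlation of log2 CPM over 8854 genes whose mean reached 20 CPM, leaving out predicted gene models. These are descriptions over libraries that share tissue, depth and treatment. Hspb1 was most like Sbsn (r = 0.99), Krt10 (r = 0.99) and Sh3bgrl3 (r = 0.99), of which Krt10 is a keratin of the suprabasal epidermis. Hspb1 counts hardly followed depth, and its CPM was highest, at 221, in the shallowest library. The part of depth in these correlations was not tested. Hspa1a was most like Rc3h1 (r = 0.85), Herpud1 (r = 0.85) and Fam102a (r = 0.84), and Hspa5 most like Crebl2 (r = 0.95), Wnk1 (r = 0.92) and Ccdc6 (r = 0.89). Hspd1 was most like Chchd4 (r = 0.93), which encodes a mitochondrial import factor, Gfm1 (r = 0.93), a mitochondrial elongation factor, and Ruvbl1 (r = 0.92). Hsph1 was most like Trmt1l (r = 0.95), Hsp90aa1 most like Patl1 (r = 0.94), Dnaja1 most like Zfp874b (r = 0.94) and Dnajb1 most like Brd1 (r = 0.96). Hspa1b (Rxra, r = 0.91) and Hspa8 (Atp5b, r = 0.78) completed the set. Between members, the highest correlations were 0.90 for Hspa1b and Dnajb1 and 0.88 for Hsph1 and Hsp90aa1.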

How the data were processed

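The authors deposited a table of raw read counts, 1 row per gene. Per the submitters' processing notes, the authors used HISAT2, Picard, featureCounts and DESeq2 on mm10, and per the file headers counting followed duplicate removal. No strand, multi-mapping or annotation setting is stated. Duplicate removal limits the counts per base that abundant genes can reach.

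Counts were analysed with edgeR 4.0.16 in R 4.3.3 (filterByExpr, minimum count 10, minimum total 15; TMM; glmQLFit, glmQLFTest), with p-values adjusted over all genes tested. Comparisons within epidermis came from 1 fit of the 12 epidermis libraries, with week and treatment additive for the mean over weeks. Tumor against whole skin used its 4 libraries, and comparisons across these tissues used all 16. The script was tested on simulated data. Alternatives were DESeq2 1.42.0, RLE and upper-quartile scaling, no filter, a replicate block, other library sets and leaving out each library. Same-numbered libraries shared little of their deviation in most pairs of groups (r from -0.15 to 0.23 over 28 pairs, 7 above 0.1). Between control and UVB epidermis at week 25 the value was 0.22. The numbers were not taken as pairs, and the fit with them as a block is given as an alternative.

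The 10 genes and the lists were chosen with earlier results of these data known. Of each other list, up to 4 called genes with the smallest p were eligible to be named, and all 10 members are given.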

Additional observations from a re-analysis of the deposited data

Results flagged for a closer look

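The effect of UVB on Hsph1 differed between weeks. The fold of UVB against control at week 25 minus that at week 2 was -1.43 ± 0.33 (SE, log2; edgeR quasi-likelihood test of the difference, adjusted p = 0.029). Hsph1 had 95.9 and 66.3 CPM in UVB epidermis at week 25, against 277 and 212 CPM in week 25 controls, and 58.9 and 61.6 CPM in UVB epidermis at week 2, against 82.6 and 49.96 CPM in week 2 controls. Week 2 control 1, at 118 Hsph1 counts, is the shallowest library. Without it the difference was -1.15 (adjusted p = 0.058), and over 14 alternative fits it lay between -1.88 and -1.15 with 5 fits past the threshold.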

How the results depend on the processing

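Over 208 alternative values of 19 called member folds, 155 stayed past the threshold, 53 did not and 0 changed sign; the causes were not tested. The number of the 10 members called, 1 at week 2, became 2 without the filter and with DESeq2 and 0 with the 4 libraries alone, and 0 to 3 when single libraries were left out. At week 25 the 5 called became 2 with upper-quartile scaling and 1 to 2 with a library left out. For the difference between weeks 25 and 2, 1 became 0 with upper-quartile scaling and with all 16 libraries, 2 without the filter and with DESeq2, and 0 to 4 with a library left out. For that between weeks 15 and 2 the range was 0 to 1. Between controls of weeks 25 and 2, 4 became 2 to 5 with a library left out. In tumor against whole skin, 0 became 0 to 3. In tumor against UVB epidermis, 2 became 1 with RLE and with upper-quartile scaling, 6 with the 4 libraries alone and 0 to 2 with a library left out. In whole skin against epidermis, 5 became 3 with the 4 libraries alone and 4 to 6 with a library left out.

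Counts over all genes moved more. With the 4 libraries alone, 684 genes were called at week 2 against 2403, 4562 at week 25 against 2898, and 6974 in tumor against UVB epidermis against 4469. Without the filter and with DESeq2, the counts were 1146 and 982 at week 15 (471 in the report), 26 and 50 for the difference between weeks 15 and 2 (0), 1612 and 1739 for that between weeks 25 and 2 (1067), 2808 and 2959 between controls (1848) and 1 and 74 in tumor against whole skin (0). With all 16 libraries they were 234, 1779, 517, 864 and 7 for week 15, week 25, the difference between weeks 25 and 2, controls and tumor against whole skin. Leaving out 1 library gave 125 to 4377 genes at week 2, 26 to 1463 at week 15, 519 to 976 at week 25, 0 to 800 and 71 to 3454 for the differences of weeks 15 and 25 from week 2, 155 to 4588 between controls, 5 to 5488 in tumor against whole skin and 2089 to 3405 in tumor against UVB epidermis. With the replicate number as a block, tumor against whole skin had 235 genes called, with 0 members, and the number of members called in the other comparisons did not change, 5 at week 25 among them. Groups of 2 and the depth of week 2 control 1 limit the small folds.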
